A study of Mus musculus with 12 samples.

Results

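The regions described here are stretches of chromatin of cultured mouse cortical neurons that lacked an ATAC-seq peak in every library of neurons that had received antisense oligonucleotides (ASO) against Rab5, and had one in nearly all other libraries. They were chosen by peak presence: the peaks of all 12 libraries were merged wherever they overlapped by at least 1 bp, and a region was kept if it had a peak in 0 of the 3 PFF+Rab5 ASO libraries and in at least 8 of the 9 other libraries. This gave 1293 regions, named ASO-closed regions below, out of 263785 merged regions. "Closed" means that no peak was called, not that no fragment was found. The absence of ASO peaks is therefore the choice itself and no finding, and it carries no test.

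All 12 libraries came from primary cortical neurons of embryonic day 18 wild-type C57BL/6 embryos, in 4 groups of 3 biological replicates with 1 batch label for all. The groups were PBS, pre-formed fibrils of α-synuclein (PFF) for 7 days, PFF with the LRRK2 inhibitor MLi-2 in the last 5 of the 7 days (PFF+MLi-2), and PFF with ASO against Rab5a and Rab5b in the last 3 days (PFF+Rab5 ASO). The free-text descriptions of the MLi-2 and ASO libraries name PBS, whereas their titles and treatment labels name PFF, and the titles were followed. No library analysed here received a non-targeting oligonucleotide or an ASO without PFF, so loss of Rab5 and exposure to an oligonucleotide cannot be told apart.

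Rab5 is the small GTPase that organises early endosomes, and an ASO lowers it by pairing with its RNA. PFF seed α-synuclein aggregates in neurons, and LRRK2 is a kinase of Rab proteins. In ATAC-seq the Tn5 transposase cuts accessible DNA, so a peak marks DNA that is free of nucleosomes, mostly promoters and enhancers. Enhancers hold short motifs for transcription factors. One of them, the AP-1 motif, is bound by pairs of Fos and Jun proteins, which neurons make after electrical activity, growth factors or stress, and AP-1 is known for helping to keep enhancers open.

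Of the 15 motifs searched, AP-1 was the one whose share was higher in the ASO-closed regions by the most percentage points. It was searched as TGANTCA, on both strands, within 100 bp of the peak summit. The 6 regions that follow are the highest ASO-closed regions with the motif. Each is printed as its summit with 100 bases on either side (GRCm38 plus strand, RefSeq sequence), with the motif in capitals.

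Intergenic, nearest coding start Tbl1xr1, chr3:21477386-21477586: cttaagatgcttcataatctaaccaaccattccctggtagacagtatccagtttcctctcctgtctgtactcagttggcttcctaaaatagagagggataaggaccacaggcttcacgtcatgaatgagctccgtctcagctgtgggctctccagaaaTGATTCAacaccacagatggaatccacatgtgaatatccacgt
Intergenic, nearest coding start Havcr2, chr11:46488706-46488906: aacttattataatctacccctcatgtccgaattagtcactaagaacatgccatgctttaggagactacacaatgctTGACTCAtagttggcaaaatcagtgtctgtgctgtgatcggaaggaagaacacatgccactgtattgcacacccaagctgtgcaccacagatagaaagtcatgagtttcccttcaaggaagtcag
Intergenic, nearest coding start Frem1, chr4:83093378-83093578: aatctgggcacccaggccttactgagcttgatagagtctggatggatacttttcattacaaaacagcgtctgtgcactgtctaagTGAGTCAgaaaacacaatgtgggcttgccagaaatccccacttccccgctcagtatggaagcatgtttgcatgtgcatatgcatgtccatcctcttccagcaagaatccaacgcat
Pxk intron, chr14:8154189-8154389: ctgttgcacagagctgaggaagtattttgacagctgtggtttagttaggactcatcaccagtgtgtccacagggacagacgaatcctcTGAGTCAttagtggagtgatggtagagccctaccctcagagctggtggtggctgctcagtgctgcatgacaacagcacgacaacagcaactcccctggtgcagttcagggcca
Dhx34 intron, chr7:16207597-16207797: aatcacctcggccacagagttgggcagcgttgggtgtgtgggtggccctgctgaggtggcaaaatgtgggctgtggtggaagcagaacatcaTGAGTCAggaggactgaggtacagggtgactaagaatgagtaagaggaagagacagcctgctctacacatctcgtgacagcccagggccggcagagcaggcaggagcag
Gzmn intron, chr14:56168095-56168295: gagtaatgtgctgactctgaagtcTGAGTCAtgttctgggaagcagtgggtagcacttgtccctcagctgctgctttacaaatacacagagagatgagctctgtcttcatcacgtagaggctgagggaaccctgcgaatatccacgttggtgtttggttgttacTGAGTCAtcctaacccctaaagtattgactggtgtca

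In the Dhx34 intron the motif centre lay 5 bp from the summit, in the region nearest to Tbl1xr1 61 bp, in the Pxk intron 9 bp, in the region nearest to Frem1 12 bp and in the region nearest to Havcr2 21 bp. The Gzmn intron held a pair of motifs, 73 bp to the left and 67 bp to the right of the summit. The next 4 are ASO-closed regions without the motif, among the 7 highest of all, and are shown for comparison. One region between them in height, also without the motif, is not printed.

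Wdr95 intron, chr5:149567145-149567345: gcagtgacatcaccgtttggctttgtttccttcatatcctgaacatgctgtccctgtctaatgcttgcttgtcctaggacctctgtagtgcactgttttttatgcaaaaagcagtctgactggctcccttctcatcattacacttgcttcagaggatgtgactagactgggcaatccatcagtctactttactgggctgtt
Asap2 intron, chr12:21098010-21098210: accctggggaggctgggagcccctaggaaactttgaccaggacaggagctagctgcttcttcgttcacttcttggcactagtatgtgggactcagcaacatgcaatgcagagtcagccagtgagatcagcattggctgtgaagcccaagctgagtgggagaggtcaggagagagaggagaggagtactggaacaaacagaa
Fam189a1 intron, chr7:65117048-65117248: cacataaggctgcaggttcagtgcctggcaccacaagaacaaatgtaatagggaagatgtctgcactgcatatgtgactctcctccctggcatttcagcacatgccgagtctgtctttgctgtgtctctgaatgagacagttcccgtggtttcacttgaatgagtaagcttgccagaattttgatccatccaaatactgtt
Intergenic, nearest coding start Emp1, chr6:135468252-135468452: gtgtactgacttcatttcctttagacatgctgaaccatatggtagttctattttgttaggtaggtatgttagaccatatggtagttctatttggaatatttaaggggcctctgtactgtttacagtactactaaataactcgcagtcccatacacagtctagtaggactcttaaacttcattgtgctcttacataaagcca

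The libraries with the ASO differed in technical measures as well. A list held 162763 to 184717 peaks in the ASO group and 137417 to 180989 in the other 9 libraries. Narrowest peaks, whose width tracks MACS2's fragment size, measured 53 to 59 bp with the ASO and 62 to 66 bp otherwise. The depth behind the local background, relative to a mean of 1, was 1.05 to 1.31 with the ASO and 0.775 to 1.03 in the others, and the lowest called summit held 8 to 9 fragments in every list. By this estimate depth was higher in the ASO libraries, though ASO replicate 2 (1.05) was close to PFF+MLi-2 replicate 3 (1.03), and their narrowest peaks were narrower. The lists hold neither read counts nor fragment lengths. The part of these measures in the results was not tested. Promoters of all 5 neuronal, 4 excitatory and 3 inhibitory marker genes had a peak in all 12 libraries, as had those of Rab5a, Rab5b and Rab5c. Among glial markers, Gfap, Aqp4, Aldh1l1, Olig2 and Mbp had one in all 12, and Sox10, which marks oligodendrocyte lineage cells, in 9 of 9 other libraries and in 1 of 3 with the ASO. Of the microglial and endothelial markers, Cx3cr1, Aif1 and Pecam1 had none, Cldn5 had a peak in 1 library and Csf1r in 7. In bulk chromatin, a region that closes in every cell and a region whose cells become rarer cannot be told apart.

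The rule could have met 90624 regions, those open in 8 or 9 of the other libraries, and 1.43% of them were ASO-closed. A further 2829 (3.12%) had a peak in 1 ASO library, 6026 (6.65%) in 2 and 80476 (88.8%) in all 3. The last set, called ASO-retained regions, is the set for comparison. The same rule with another group as the empty one gave 207 regions for PBS (0.232%), 191 for PFF (0.218%) and 582 for PFF+MLi-2 (0.643%). The ASO group had the most closed regions, and it also had the most regions of its own, 5240 with a peak in all 3 ASO libraries and in at most 1 of the others (1510 for PFF, 273 for PBS and 228 for PFF+MLi-2). The number moved with the lists used. Keeping the 137417 best peaks of each library gave 1950 ASO-closed regions. Without ASO replicate 1 the rule gave 2873 regions, and without ASO replicate 2 it gave 2138.

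The 3 ASO libraries did not contribute alike to the choice. Asking for no peak in replicates 2 and 3 alone left 2866 regions, of which the 1293 that also lacked one in replicate 1 made up 45.1% (exact 95% interval 43.3 to 47.0), so the majority had a peak in replicate 1. Without a condition on replicate 2 the 1293 were 60.5% (58.4 to 62.6) of 2136 regions, and without one on replicate 3 they were 75.8% (73.7 to 77.8) of 1706. The intervals cover counting error only. These shares come from the peak calls that the rule used, and so describe the rule and test nothing about the ASO-closed regions. The same shares for regions empty in another group alone were 16.3% to 51.4% for PBS, 26.9% to 55.7% for PFF and 40.9% to 43.1% for PFF+MLi-2.

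At the edge of the rule, 482 ASO-closed regions (37.3%) had a peak in all 9 other libraries and 811 (62.7%) in 8. The missing library was PBS replicate 2 for 197 regions and PBS replicate 1 for 17, the most and the least frequent. The highest regions just inside were the one nearest to Havcr2 (chr11:46488744-46488919; no peak in PBS replicate 2) and the Dhx34 intron (chr7:16207582-16207754; no peak in PFF+MLi-2 replicate 2). Just outside lay 1196 regions with 7 of 9 peaks. The highest of these, chr8:91917907-91918165, had no peak in PBS replicates 1 and 2 and fold enrichments of 5.52 to 7.71 in the other 7 libraries, and the second, chr18:25991577-25991878, had none in PBS replicates 2 and 3. On the other side, chr13:63643427-63643689 had fold enrichments of 5.72 to 10.7 in the 9 libraries and of 4.82 in ASO replicate 1 alone, and chr6:37658082-37658313 had 5.52 to 10.4 and a value of 5.33 in ASO replicate 2 alone.

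ASO-closed regions were low peaks. Fold enrichment, the MACS2 ratio of fragments at the summit to the local background, was ranked within each list. The median ASO-closed region stood at the 45.7th, 29.9th and 37.3rd percentile of the 3 PBS lists, the 48.8th, 42.0th and 40.8th of the PFF lists and the 37.7th, 39.6th and 41.5th of the PFF+MLi-2 lists. ASO-retained regions had medians between the 70th and 76.9th percentile. Group means of the library medians were 37.6 ± 7.91 (SD, n = 3) for PBS, 43.9 ± 4.31 for PFF and 39.6 ± 1.90 for PFF+MLi-2, which overlap. The median summit held 13 to 15 fragments, against 21 to 25 in ASO-retained regions and a lowest call of 8 to 9. Low peaks were common to regions empty in any 1 group: the median height was the 40.8th percentile in the ASO-closed regions, and the 31.3rd, 38.6th and 35.5th in regions empty in PBS, PFF and PFF+MLi-2 alone.

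**Figure D1:**
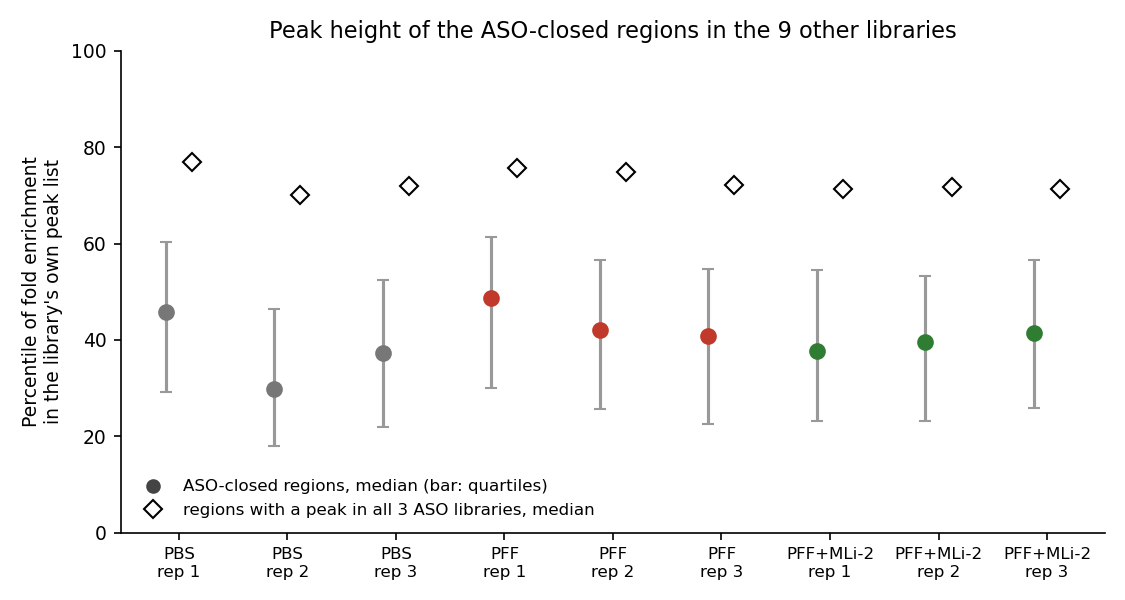
Percentile of fold enrichment in each library's own peak list (vertical axis, 0 to 100) for the 9 libraries without the ASO. Filled points are the medians of the ASO-closed regions with quartiles as bars, open diamonds the medians of ASO-retained regions. The filled points lie between 29.9 and 48.8 and the diamonds between 70 and 76.9.

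ASO-closed regions were rarest among high peaks. Their share was 3.77% of the 3025 regions below the 20th percentile, 5.60% of the 6303 regions between the 30th and 40th percentile, 1.63% of the 12983 between the 50th and 60th, 0.333% of the 13228 between the 60th and 70th, and only 4 ASO-closed regions lay above the 70th.

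The 4 regions above the 70th percentile were an intron of Wdr95, an intron of Asap2, the intergenic region nearest to Tbl1xr1 and an intron of Fam189a1. The Wdr95 intron (chr5:149567058-149567378) was the highest, with fold enrichments of 8.62, 5.97 and 7.55 in PBS, 8.79, 7.60 and 8.51 in PFF, and 8.61, 7.95 and 7.39 with MLi-2. Its summit held 19 to 30 fragments in these 9 libraries, and none of the 3 ASO lists had a peak there. The intron of Asap2 (chr12:21097744-21098326), a regulator of Arf GTPases, had fold enrichments of 7.72, 5.89 and 6.84 in PBS, 7.69, 10.4 and 7.99 in PFF and 7.98, 7.22 and 6.55 with PFF+MLi-2. The region nearest to Tbl1xr1, 599 kb from its start (chr3:21477400-21477662), had 5.76 to 6.83 in PBS, 7.13 to 8.76 in PFF and 6.82 to 7.99 in PFF+MLi-2. In the Fam189a1 intron (chr7:65116990-65117242) the values were 6.20 to 6.98, 6.97 to 8.79 and 5.77 to 7.28 in the same order. Fold enrichment is not scaled between libraries, and overlaps of single regions are stated here on this scale. On it, the 3 groups overlapped in the Wdr95 and Asap2 introns, and near Tbl1xr1 the PFF values lay above the PBS values. On ranks within each library the last 2 were the other way round: PFF lay above PBS without overlap in the Asap2 intron, and the groups overlapped near Tbl1xr1.

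The next regions by height were chr18:48535018-48535410, the region nearest to Havcr2, chr6:135468162-135468468 nearest to Emp1, chr4:83093337-83093591 nearest to Frem1, and introns of Pxk (chr14:8154181-8154396), Cdc123 (chr2:5808675-5808939), Dhx34 and Gzmn (chr14:56168053-56168330). Their mean percentiles ran from 69.5 down to 66.6. Pxk encodes a kinase-like protein with a phosphoinositide-binding PX domain, and Gzmn belongs to the granzyme family of proteases.

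ASO-closed regions lay at promoters less often than ASO-retained regions. Of the 1293, 100 (7.73%, Wilson 95% interval 6.40 to 9.32) had their summit within 1 kb of a transcription start site (GENCODE vM21, coding and long noncoding genes), against 25.4% (25.1 to 25.7) of ASO-retained regions. Introns held 55.4% (52.7 to 58.1) against 37.7% (37.3 to 38.0), and intergenic DNA 33.9% (31.3 to 36.5) against 33.8% (33.4 to 34.1). The median distance to a coding start site was 22.3 kb against 15.6 kb. The intervals for promoters and introns do not overlap, and those for intergenic DNA do. Regions with a peak in 1 or 2 of the 3 ASO libraries had promoter shares of 11.1% and 12.9%. Regions empty in another group alone also had low ones, 11.6% (7.92 to 16.7) for PBS, 5.24% (2.87 to 9.37) for PFF and 10.5% (8.25 to 13.2) for PFF+MLi-2, and these intervals overlap that of the ASO-closed regions. The intron share was 48.8% and 48.0% with a peak in 1 or 2 ASO libraries. In regions empty in PBS, PFF and PFF+MLi-2 alone it was 44.9% (38.3 to 51.7), 49.7% (42.7 to 56.8) and 47.8% (43.7 to 51.8). Of these, only the PFF interval overlaps that of the ASO-closed regions. With equal numbers of peaks the promoter share was 9.44%, and among regions with a peak in all 9 other libraries 4.98%.

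The median width was 219 bp, against 329 bp in ASO-retained regions and 188, 210 and 198 bp in regions empty in PBS, PFF and PFF+MLi-2 alone, and the GC content of the 100 bases on either side of the summit was 49.3%, against 51.2% in ASO-retained regions and 48.8%, 44.3% and 46.3% in the same 3 sets. The 5240 regions open only with the ASO had 40.8% GC. ASO-closed regions were 1.88% of the regions with 45 to 50% GC, 0.612% at 60 to 65% and 0.102% above 70%. They were spread over the genome: chromosomes 1 to 19 and X had shares between 1.04% (chromosome 19) and 1.77% (chromosome 13), no ASO-closed region lay on a scaffold, and neighbouring ones were a median of 970 kb apart. The nearest peak of any ASO library was a median of 2.93 kb away, and 119 regions (9.20%) had one within 200 bp.

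The 10 highest ASO-closed regions at coding start sites were those of Pate1, Rapgef4, Ikzf3, Fancc, Ehmt1, Smim14, Spsb1, Tom1l2, Dpp4 and Acad12. The Pate1 region (chr9:35687094-35687358, 149 bp downstream of the start) had fold enrichments of 6.98, 6.26 and 6.12 in PBS, 6.59, 7.32 and 7.59 in PFF and 4.86, 4.69 and 5.17 with PFF+MLi-2. All PFF+MLi-2 values lay below all PBS and PFF values. At Rapgef4, which encodes the cAMP sensor Epac2, the region chr2:72054515-72054730 lay 16 bp downstream of a start site, with 4.79 to 6.48 in PBS, 5.01 and 5.86 in PFF replicates 2 and 1, no peak in PFF replicate 3, and 6.24 to 7.17 in PFF+MLi-2. The region at Ehmt1, a histone H3 lysine 9 methyltransferase (chr2:24824973-24825374), had 4.05 to 6.61 in PBS, 4.79 to 5.86 in PFF and 4.83 and 6.24 in the PFF+MLi-2 libraries with a peak. At Tom1l2, an adaptor in endosomal sorting (chr11:60246137-60246377), the values were 4.32 to 5.10 in PBS, 4.85 to 7.54 in PFF and 4.08 and 4.38 with PFF+MLi-2. At Rapgef4 the PFF+MLi-2 peaks lay above the PFF peaks, at Tom1l2 they lay below them, and at Ehmt1 all groups overlapped.

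AP-1 motifs were present in 338 of the 1293 ASO-closed regions, 26.1% (23.8 to 28.6), against 8.85% (8.66 to 9.05) of ASO-retained regions and 10.8% of all merged regions. The share was higher the fewer ASO libraries had a peak: 8.85% with 3, 15.8% (14.9 to 16.8) with 2, 21.2% (19.7 to 22.7) with 1 and 26.1% with 0, and the intervals of these 4 sets do not overlap. For the form with G or C in the centre, TGACTCA or its reverse complement, the counts were 258 of the 1293 and 6.13% of the ASO-retained regions. Read the other way, 3.75% (3.38 to 4.16) of the 9011 regions with an AP-1 motif that were open in the other groups were ASO-closed, and 1.17% (1.10 to 1.25) of the 81548 without. The motif was chosen after the sequences of these regions had been looked at, so these shares describe them and carry no test.

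**Figure D2:**
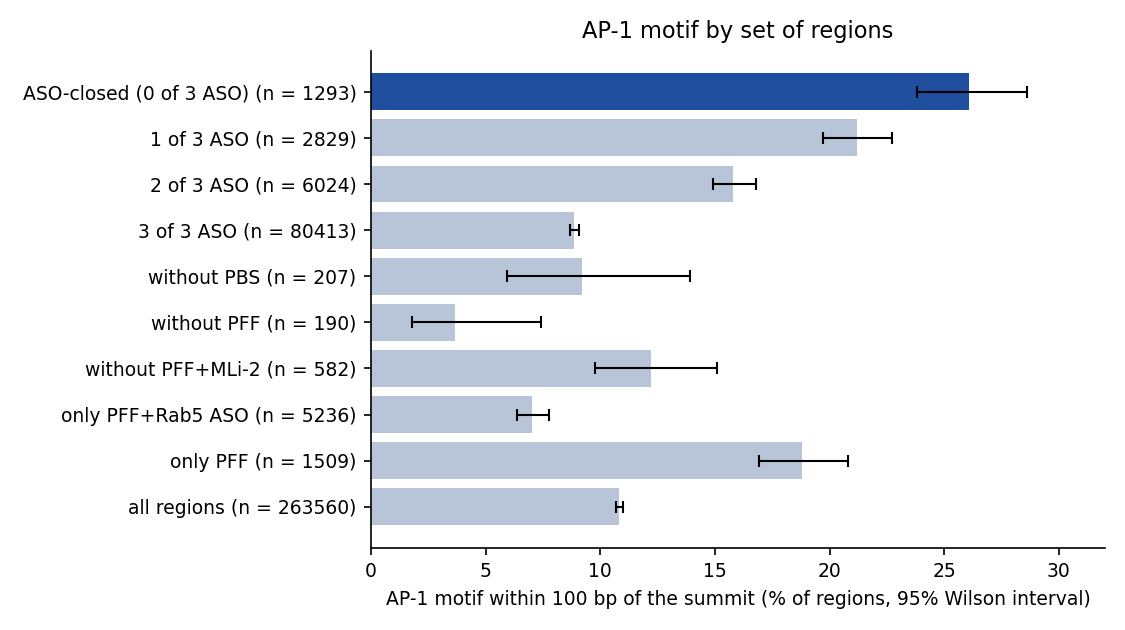
Share of regions with an AP-1 motif within 100 bp of the summit (horizontal axis, percent, with 95% Wilson intervals) for 10 sets of regions. The first 4 bars are regions open in 8 or 9 of the other libraries, divided by the number of ASO libraries with a peak. The share falls from 26.1% to 8.85% over these 4 bars, and regions empty in another group reach at most 12.2%.

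Regions empty in another group did not share it. The AP-1 share was 9.18% (5.95 to 13.9) of the regions without a peak in PBS alone, 3.68% (7 of 190) for PFF and 12.2% (9.79 to 15.1) for PFF+MLi-2. Regions open only in one group had it in 18.8% (16.9 to 20.8) of cases for PFF, 13.9% (10.3 to 18.5) for PBS, 12.7% for PFF+MLi-2 and 7.03% (6.37 to 7.75) for PFF+Rab5 ASO. Of these sets, only the regions open in PFF alone came near the ASO-closed regions, and their intervals do not overlap.

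The difference was also present among regions of like height, position and base composition, except the lowest. Between the 20th and 30th percentile of height, 23.8% of 151 ASO-closed and 6.70% of 2088 ASO-retained regions had the motif. Between the 40th and 50th the shares were 27.2% of 416 and 8.95% of 7846, and between the 60th and 70th 45.5% of 44 and 10.5% of 12262. In the lowest group, under the 20th percentile, they were 9.65% of 114 and 6.20% of 2113. Outside promoters 27.3% (24.9 to 29.9) of ASO-closed and 10.5% (10.2 to 10.7) of ASO-retained regions had it, at promoters 12 of 100 and 4.05% (3.79 to 4.33), and at 45 to 55% GC 27.3% (24.2 to 30.7) and 10.6% (10.3 to 10.9). The 482 regions with a peak in all 9 other libraries had it in 28.2% (24.4 to 32.4). Within 50 bp of the summit the shares were 18.5% and 5.25%.

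**Figure D3:**
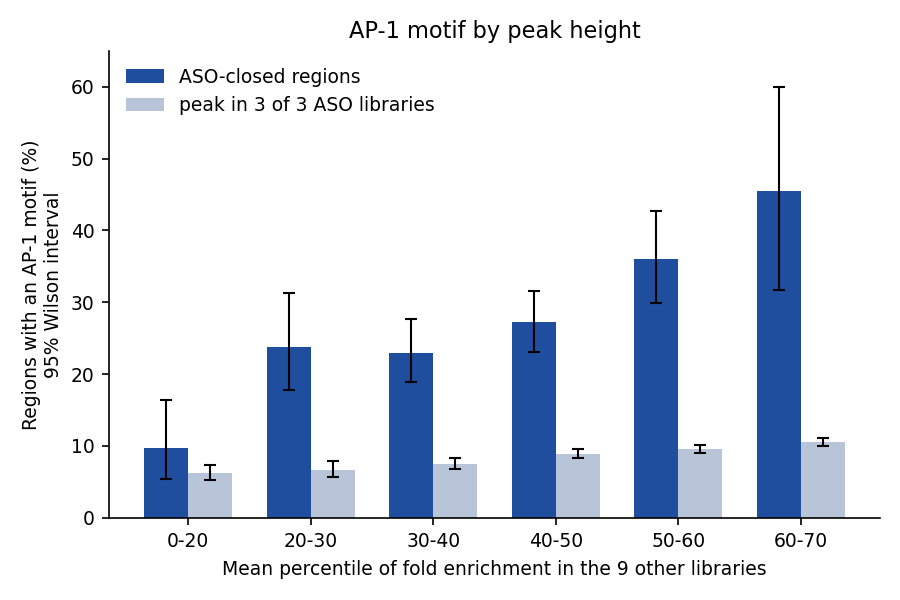
Share of regions with an AP-1 motif (vertical axis, percent, 95% Wilson intervals) by mean percentile of fold enrichment over the libraries without the ASO, for ASO-closed and ASO-retained regions. Bins with fewer than 20 ASO-closed regions are left out. The intervals are apart in every bin from the 20th percentile up and overlap below it.

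The nearest motif also lay closer to the summit. Of the 338 ASO-closed regions with it, 157 (46.4%, 41.2 to 51.8) had a motif centre within 25 bp of the summit, against 34.8% (33.7 to 35.9) of the 7120 ASO-retained ones and 27.2% (22.9 to 31.9) of the 368 open only with the ASO. More than one motif was found in 17.8%, 7.94% and 3.26%. An example of a central motif is the Dhx34 intron printed above, and of a pair the Gzmn intron.

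**Figure D4:**
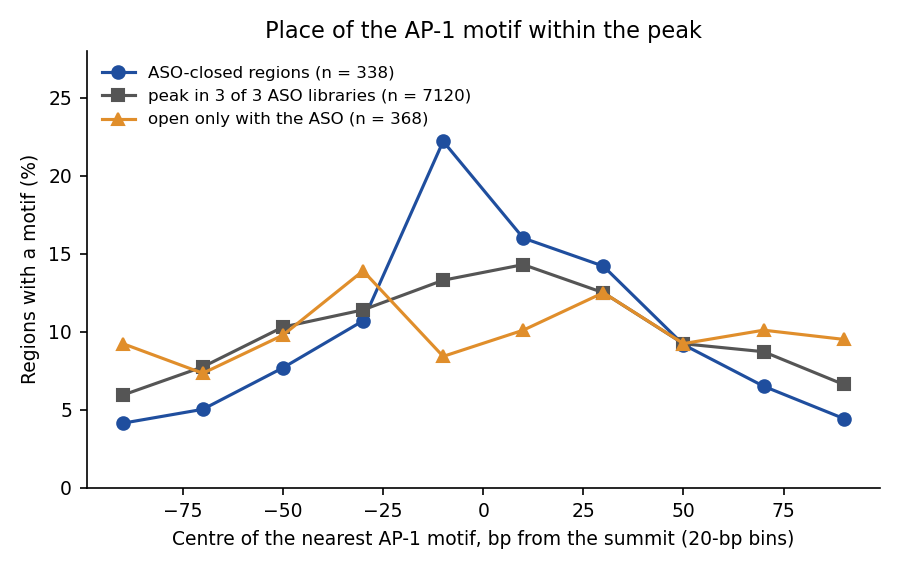
Position of the nearest AP-1 motif relative to the peak summit (horizontal axis, bp, in 20-bp bins) as a percent of the regions with a motif, for ASO-closed regions, ASO-retained regions and regions open only with the ASO. In ASO-closed regions 22.2% and 16.0% fall in the bins on either side of the summit, against 13.3% and 14.3% in ASO-retained regions.

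The other 13 motifs searched had smaller differences or the opposite one. The E-box CAGATG, a site of proneural factors such as Neurod proteins, was in 388 (27.6% to 32.6%) of the ASO-closed and 20.9% (20.6 to 21.2) of ASO-retained regions, and 22.2% of all regions. The E-box CATATG was in 8.74% (7.32 to 10.4), 4.85% (4.71 to 5.00) and 5.91%, TEAD sites (GGAATG) in 14.8% (13.0 to 16.9), 11.0% (10.8 to 11.3) and 11.7%, FOX sites (TGTTTAC) in 5.03% (3.96 to 6.36), 2.69% (2.58 to 2.81) and 2.94%, and the glucocorticoid receptor palindrome in 1.24% (0.763 to 2.00), 0.486% (0.440 to 0.537) and 0.527%. These 5 were more frequent in ASO-closed than in ASO-retained regions with intervals apart. Regions empty in another group alone had some of them at like levels: TEAD sites were in 15.3% (10.8 to 21.1) of those empty in PFF and 13.5% (9.53 to 18.9) of those empty in PBS, FOX sites in 4.64% (3.21 to 6.67) of those empty in PFF+MLi-2, and CATATG in 7.89% (4.84 to 12.6) of those empty in PFF. The motif of CTCF, which insulates chromatin domains, was in 5 ASO-closed regions, 0.387% (0.165 to 0.902), against 4.52% (4.38 to 4.67). The GC box GGGCGG of housekeeping promoters was in 4.80% (3.76 to 6.10) against 18.0% (17.8 to 18.3), the RFX half-site GTTGCCA in 2.17% against 6.23% (6.06 to 6.39), the homeobox core TAATTA in 3.94% (3.01 to 5.15) against 6.40% (6.23 to 6.57), and the MEF2 site in 0.232% against 1.13%. The GC box and the CTCF motif were also infrequent in regions empty in another group alone, with 9.18% and 0.966% for PBS, 4.74% and 1.05% for PFF, and 6.87% and 1.55% for PFF+MLi-2. The cAMP response element TGACGTCA (0.309% and 0.837%) and the E-boxes CAGCTG (18.3% and 18.0%) and CACGTG, the core of lysosomal CLEAR elements (3.40% and 4.32%), had overlapping intervals.

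A lower AP-1 share in the ASO libraries was also measured outside the ASO-closed regions. It rests on the same ASO peak calls as the rule, and only the ASO-closed regions were left out. Regions with a peak in 1 or 2 ASO libraries (AP-1 in 21.2% and 15.8%) and those open only with the ASO (7.03%) stayed in. These shares are therefore not independent of the rule and carry no test. Among the 137417 best peaks of each library, after peaks in ASO-closed regions had been left out, AP-1 was in 10.1%, 9.34% and 9.83% of the PBS peaks, 10.6%, 9.98% and 10.1% of the PFF peaks, 9.57%, 8.94% and 10.8% of the PFF+MLi-2 peaks and 8.65%, 8.13% and 8.47% of the PFF+Rab5 ASO peaks. Every ASO library lay below every other library. At 45 to 55% GC the ASO libraries had 9.89%, 9.22% and 9.67% and the other 9 between 10.6% and 12.8%. The median GC content of these peaks was 49.3% to 49.8% with the ASO and 49.8% to 50.7% without.

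**Figure D5:**
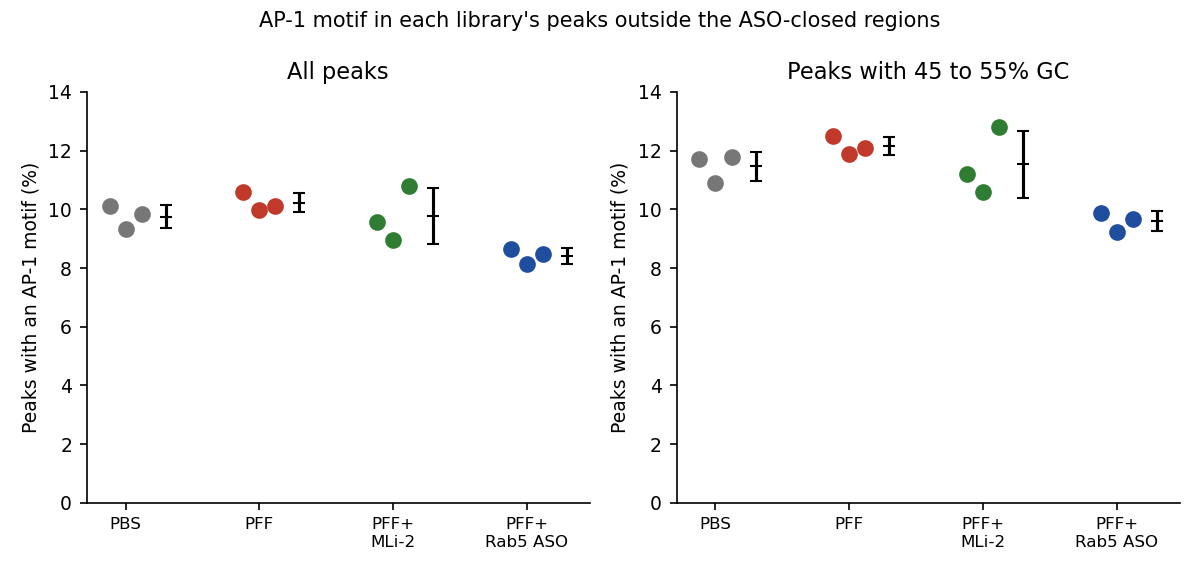
Share of each library's peaks with an AP-1 motif (vertical axis, percent), outside the ASO-closed regions, for all of the best peaks (left) and those with 45 to 55% GC (right). Points are libraries, bars the mean and SD of 3. The ASO libraries lie at 8.13 to 8.65 (left) and 9.22 to 9.89 (right), below all 9 others.

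The same was asked of height where every library had a peak, in 72406 regions with sequence, none of which can be ASO-closed. Ranks of fold enrichment were turned into normal scores within each library, on which 1 unit is 1 SD of the library's regions. The mean score of the 6429 regions with AP-1 minus that of the others was -0.182, -0.248 and -0.203 in the ASO libraries. It was -0.061, -0.156 and -0.105 in PBS, -0.014, -0.062 and -0.038 in PFF and -0.120, -0.184 and -0.010 with PFF+MLi-2. The ASO mean was -0.211 ± 0.034 (SD, n = 3) and that of the other 9 -0.083 ± 0.062, with the lowest PFF+MLi-2 library inside the ASO range. With TGACTCA the ASO libraries (-0.274 to -0.194) lay below all others (-0.183 to 0.010). AP-1 was not alone in this: the ASO libraries also lay below all others for CAGCTG (-0.132 to -0.113 against -0.112 to -0.010) and the glucocorticoid receptor palindrome, and above all others for TAATTA (-0.039 to -0.032 against -0.252 to -0.147), GTTGCCA (0.161 to 0.176 against -0.016 to 0.027) and the MEF2 site. No test was run on these scores, since the motifs were chosen with the ASO-closed regions in view.

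Heights of ASO-closed regions were compared among PBS, PFF and PFF+MLi-2, without the ASO libraries. The rule asked these 9 libraries for a peak but treated them alike and did not use height. Of the 1293, 482 had all 9 peaks and entered limma on normal scores, among 77735 such regions, while the 811 with 8 of 9 were not tested. Heights at an adjusted p under 0.05 (limma, Benjamini-Hochberg over all regions) numbered 0 ASO-closed regions in each of the 3 comparisons and 0 (0%) of all regions. At an unadjusted p under 0.05 limma gave 83 ASO-closed regions (17.2%) for PFF vs PBS, 86 (17.8%) for PFF+MLi-2 vs PFF and 61 (12.7%) for PFF+MLi-2 vs PBS, against 9.86%, 11.4% and 5.78% of all regions.

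With PFF, 45 of the 482 (9.34%) were higher than in PBS without overlap of the libraries and 37 (7.68%) lower, where all regions gave 7.15% and 8.0%. With MLi-2 added to PFF, 51 (10.6%) were higher and 35 (7.26%) lower than in PFF, where all regions gave 10.0% and 7.60%. PFF+MLi-2 against PBS gave 46 (9.54%) higher and 14 (2.90%) lower, where all regions gave 5.21% and 5.16%. The median difference of the 482 was 0.11 score units for PFF minus PBS, 0.07 for PFF+MLi-2 minus PFF and 0.14 for PFF+MLi-2 minus PBS, and that of all regions -0.02, 0.01 and 0.00, in that order. Single libraries moved the medians: PFF minus PBS was 0.06 without PFF replicate 1, and PFF+MLi-2 minus PFF was 0.12, 0.01 and 0.11 without PFF replicates 1, 2 and 3 in turn and 0.03 without PFF+MLi-2 replicate 3. With equal numbers of top peaks per library PFF+MLi-2 minus PFF was 0.00, so no shift of that comparison can be read from its median. The shares without overlap for PFF against PBS and for MLi-2 against PFF were near those of all regions. The shares at an unadjusted p under 0.05 were above those of all regions in each comparison. However, all regions were not matched in height to the ASO-closed regions, which were low peaks, and the part of height in these shares and medians was not tested. The shares without overlap for PFF+MLi-2 against PBS leaned to higher values, with both of these groups shared with the other comparisons and no region past the threshold.

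The region with the smallest p for PFF vs PBS lay in an intron of Dock9, an activator of the GTPase Cdc42 (chr14:121774673-121774999). Its fold enrichment was 4.04, 4.05 and 3.96 in PBS, 6.23, 8.15 and 7.02 in PFF and 4.04, 4.90 and 6.15 with PFF+MLi-2, so all PFF libraries lay above all others in fold, while on ranks PFF overlapped PFF+MLi-2. The score difference was 1.67 ± 0.241 (SE, limma adjusted p = 0.218). The second, chr17:27547268-27547549, in an exon of Gm49774 and 9.10 kb from the start of the chromatin protein gene Hmga1, held AP-1 and had 3.98 ± 0.390 (SD, n = 3) in PBS, 6.59 ± 0.769 in PFF and 4.77 ± 0.379 with PFF+MLi-2 (limma adjusted p = 0.218).

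In the opposite direction, an intron of the astrocyte matrix gene Sparcl1 (chr5:104101977-104102156) had 6.41, 4.69 and 5.46 in PBS, 3.88, 3.85 and 3.99 in PFF and 5.53, 6.04 and 4.92 with PFF+MLi-2. It had the smallest p of the 482 among values lower in PFF than in PBS (-1.32 ± 0.23, limma adjusted p = 0.218), and was second by p among values higher with MLi-2 than in PFF (1.39 ± 0.215, limma adjusted p = 0.162). An intron of B3galt1, a glycosyltransferase gene (chr2:67898018-67898230), had 6.65 ± 0.567 in PBS, 4.43 ± 0.524 in PFF and 6.05 ± 0.603 with PFF+MLi-2 (PFF minus PBS -1.49 ± 0.292, limma adjusted p = 0.221). In an intron of Insr, the insulin receptor (chr8:3237414-3237666), the values were 5.64 ± 0.949, 4.47 ± 0.268 and 7.05 ± 0.687, with PFF+MLi-2 above PFF by 1.66 ± 0.233 (limma adjusted p = 0.162). An intron of Phactr3 (chr2:178321405-178321546) had 4.23 ± 0.125 with MLi-2 and 5.87 ± 0.148 with PFF alone (limma adjusted p = 0.208), and the Pate1 start 4.91 ± 0.246 and 7.17 ± 0.516 (limma adjusted p = 0.221). None of these regions passed the threshold.

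For PFF+MLi-2 against PBS, the regions by smallest p were an intron of Acmsd (chr1:127750817-127751168; 4.14 ± 0.238 in PBS, 5.60 ± 0.479 in PFF+MLi-2) and an intergenic region of chromosome 8 (chr8:42596692-42596966; 4.75 ± 0.777 and 6.90 ± 0.367) among the higher, and introns of Nln (chr13:104025368-104025542; 6.21 ± 0.993 and 4.56 ± 0.112) and Sptbn4 (chr7:27423985-27424268; 6.95 ± 0.736 and 5.18 ± 0.278) among the lower. Their limma adjusted p was 0.828 in each case.

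In genes, 866 ASO-closed regions lay inside or within 10 kb of a coding gene, 921 genes in all of the 17265 with a region open in the other groups, and 427 lay near none. Most genes had 1, 92 had at least 2 and 15 at least 3. Fgfr2 and Gm20388 had 5 each, but their GENCODE models span 2961 and 4435 kb and run over other genes. With 3 each, Exoc6b, a subunit of the exocyst that tethers vesicles to the plasma membrane, had 11 regions open in the other groups and Dock9 had 21, while the long gene Asic2, an acid-sensing channel, had 71. The Exoc6b regions were chr6:84806441-84806765 and chr6:84806139-84806373, which are neighbours in an intron, and chr6:84746768-84747085 in an exon. The first had fold enrichments of 4.68 to 6.26 in PBS, 4.76 to 6.55 in PFF and 5.17 to 6.49 in PFF+MLi-2, which overlap. In Dock9 the regions were chr14:121634732-121634991, chr14:121602735-121602881 with AP-1, and the one that was higher with PFF. 2010111I01Rik, also with 3, overlaps Fancc, and 2 of its 3 lie in Fancc. Behind the genes with 5, 13 genes were tied at 3, and the 4 described here came first in alphabetical order.

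The lists of endolysosomal genes, whose pathway the study addresses, held 0 to 3 ASO-closed regions each. Lysosomal enzymes and membrane proteins had 0 of the 138 regions that were open in the other groups, which allows a share of up to 2.71% (Wilson), subunits of the vacuolar proton pump 0 of 61, and retromer, sorting nexin and ESCRT genes 0 of 83. Autophagy genes had 2 of 180, at Atg10 and Ulk1, the kinase that starts autophagosome formation. Lrrk2 and its Rab substrates had 2 of 76, at Rab8b and Lrrk1. The Wilson intervals of these 5 lists include the overall 1.43% and do not tell a lower share from it. So does that of the neuronal activity genes, with 0 of 128 (up to 2.91%).

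Rab5 and early endosome genes had 3 of 160 (1.88%, 0.640 to 5.37), and none at Rab5a, Rab5b or Rab5c. The highest, in an intron of Ocrl, a phosphoinositide phosphatase of endosomes (chrX:47962652-47963034), held AP-1 and had 7.35 and 4.32 in the PBS libraries with a peak, 5.86, 6.17 and 5.99 in PFF and 6.24, 4.69 and 5.52 in PFF+MLi-2. An intron of the Akt phosphatase gene Phlpp1 (chr1:106232510-106232688) had 4.32 to 6.38 in PBS, 3.86 to 5.77 in PFF and 4.80 and 5.56 with PFF+MLi-2. The third, near Rabgef1, a nucleotide exchange factor of Rab5, lay at the start of its neighbour Tmem248 (chr5:130220137-130220410), with 3.56 to 4.74 in all 9 libraries. Groups overlapped in all 3.

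Of the synaptic lists, presynaptic release genes had the highest share, 12 of 322 (3.73%, 2.14 to 6.40), at Bsn, Erc2, Slc17a7, Sv2b, Syn3, Syt1, Unc13b and Vamp1, and 5 of the 12 held AP-1. This interval lies above the overall 1.43%, but 18 lists were set beside that share and no correction was made for their number. AP-1 was in 26.1% of all ASO-closed regions. Syn3, a synapsin, had 3 of them, 1 of which lies by the nested gene Timp3. The Syt1 region, in an intron of the calcium sensor of release (chr10:108581077-108581474), had 6.67, 7.22 and 6.24 in PBS, 6.03, 4.59 and 4.76 in PFF and 6.22, 5.73 and 5.11 with PFF+MLi-2, so the PBS libraries lay above all others in fold, while on ranks PBS overlapped PFF+MLi-2. In an intron of Erc2, an active zone scaffold (chr14:27819111-27819344), PBS had 4.29 and 3.82 and no peak in replicate 2, PFF 5.87, 6.14 and 6.43, and PFF+MLi-2 6.16, 5.33 and 4.48. A region within 10 kb of Vamp1, a vesicle SNARE (chr6:125255714-125255909) held AP-1 and had 5.40 to 5.52 in PBS, 6.17 to 7.19 in PFF and 5.05 and 5.52 with PFF+MLi-2. The other of the 4 highest regions of this list was counted for Syn3 and lay at the start of the antisense gene 4930486F22Rik (chr10:86094903-86095099). It had 4.42 to 5.40 in PBS, 4.92 to 5.81 in PFF and 4.95 to 6.49 with PFF+MLi-2, which overlap. PBS thus lay above PFF in fold at Syt1, below it at Erc2 and Vamp1 and overlapped it at Syn3. The regions at Erc2 and Vamp1 had 8 of 9 peaks and were not tested. At Syt1 limma gave an adjusted p of 0.299 for PFF vs PBS.

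Glutamate receptor and postsynaptic scaffold genes had 7 of 602 (1.16%), at Dlg2, Dlgap2, Gria1, Gria2, Gria3 and Grin2b, GABA-A receptor genes 2 of 89 and synaptic adhesion genes 4 of 508 (0.787%). Axon guidance genes had 4 of 577 (0.693%), cortical identity factors 2 of 409 (0.489%), at Nfia and Nfix, and interneuron genes 1 of 117, at Erbb4. Voltage-gated channel genes had 1 of 504 (0.198%, 0.0350 to 1.12), in an intron of Kcnh1. Its interval lies below the overall 1.43%. The Gria1 intron, of an AMPA receptor subunit (chr11:57278089-57278383), had 4.36 and 4.09 in PBS, 4.81, 5.25 and 5.35 in PFF and 5.86, 6.15 and 6.20 with PFF+MLi-2, so the 3 groups did not overlap in fold, with PBS replicate 2 lacking a peak. The Gria3 intron, of another subunit (chrX:41565001-41565209), ran the other way, with 5.88 and 6.12 in PBS, 4.76, 5.78 and 4.79 in PFF and 4.86, 4.33 and 3.45 with PFF+MLi-2. The Gria2 intron (chr3:80784564-80784777) had 4.32 to 4.78 in PBS, 5.40 to 6.79 in PFF and 5.41 and 4.48 with PFF+MLi-2. These 3 regions had 8 of 9 peaks and were not tested. In an intron of Dlg2, a postsynaptic scaffold (chr7:92095293-92095515), PBS had 6.25, 5.15 and 5.67, PFF 4.91, 3.71 and 5.11 and PFF+MLi-2 5.55, 4.69 and 5.52, so PFF lay below PBS without overlap (limma adjusted p = 0.357). The 4 highest regions of this list shared no direction between the groups.

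Glial marker genes had 5 of 144 (3.47%, 1.49 to 7.87), at Cnp, Cx3cr1 and Olig2, none with AP-1. The interval lies just above the overall 1.43%, but both regions counted for Cnp lie inside its neighbour Dnajc7, 1.34 and 1.84 kb from the Dnajc7 start. Another 2 were counted for Cx3cr1, whose GENCODE model spans 168 kb and whose promoter had no peak in any library. Of these, chr9:120043758-120044026 had the start of Xirp1, 20.2 kb away, as its nearest coding start. The region nearest to Olig2, 3.09 kb upstream of its start (chr16:91222241-91222490), had 3.73 to 4.22 in PBS, 3.35 to 4.13 in PFF and 4.09 to 5.15 in PFF+MLi-2, while the Olig2 promoter kept a peak in all 12 libraries. Neural progenitor genes had 2 of 92, at Gli3 and Notch1, and the stress, senescence and TGF-beta list 3 of 180, at Ccnb2, Cdk6 and Tgfbr2, the receptor of TGF-beta. The 18 lists were chosen with results of these data known, and their shares are descriptions. Their intervals are not corrected for the number of lists.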

How the data were processed

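ATAC-seq gave 1 peak list for each of 12 libraries. The submitters' processing notes name Trim Galore 0.6.7, Bowtie2 2.5.1, the build GRCm38 and MACS2 2.2.7.1, with which the authors called peaks per library. Duplicate removal, the shift for Tn5 and MACS2 options are not given in the sources used here. The deposited lists give fold enrichment (a ratio of summit to background), −log10 p and −log10 q, the summit offset, and a score, which was not used. Lists hold no read counts. Summit fragment numbers were recovered from fold and −log10 p, and depth is relative.

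Peaks were merged in Python 3.11.15 with scipy 1.17.1. Heights were compared in limma 3.58.1 (R 4.3.3) on normal scores of within-library ranks, over the 6 libraries of each comparison and regions with a peak in all 9 libraries without the ASO, with a Benjamini-Hochberg adjusted p under 0.05 as threshold. The fit was tested on simulated data. Shares have Wilson 95% intervals, shares with 1 library left out of the rule exact binomial ones, and both cover counting error only. Sequence came from GRCm38.p6 (RefSeq) and genes from GENCODE vM21. Coordinates count from 1.

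The members and gene lists were chosen with earlier results of these data known, and the 15 motifs after the members' sequences were seen. Named were the 12 highest members, the 10 highest at coding starts, 6 genes with most members (13 tied at 3, taken in alphabetical order), up to 4 members per list (a selection is printed), the 2 with the smallest p in each direction of each comparison, and the 2 nearest each side of the rule. Alternatives were other peak sets, a merging overlap of 50 bp, stricter presence and absence, a 50 bp motif window, ranks of −log10 p, a replicate block and leaving out each library.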

Additional observations from a re-analysis of the deposited data

How the results depend on the processing

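The number of ASO-closed regions stayed near 1293 with −log10 q of at least 2 (1295), a merging overlap of 50 bp (1284) and no ASO peak within 200 bp (1174). It was 1950 with equal numbers of peaks per library, 482 with a peak required in all 9 other libraries, and 1408 to 2873 without 1 library, where the rule asks for fewer libraries. The AP-1 share was 18.5% within 50 bp of the summit and 22.8% to 27.5% without 1 library. The promoter share was 9.44% with equal numbers of peaks, 5.96% with no ASO peak within 200 bp, 4.98% with a peak in all 9 and 7.60% to 9.95% without 1 library. The intron share was 51.9% with equal numbers and 51.6% to 54.8% without 1 library, and GC 48.8% to 49.8%. With equal numbers the share lacking a peak in the ASO library left out of the rule was 57.7% for replicate 1 and 72.0% for replicate 3. For shifts not set by the rule the cause was not tested. The 200 bp and all-9 settings for position, motifs and height were added after the data were seen. Members past the limma threshold numbered 0 in all 3 comparisons under every alternative run. With the replicate number as a block they were 0 as well, with the medians 0.11, 0.07 and 0.14 unchanged. Without 1 library the medians were 0.06 to 0.16, 0.01 to 0.12 and 0.11 to 0.16. Deviations of same-numbered libraries from their group means had correlations of 0.01 to 0.07. Per the study's methods a replicate is a pregnancy whose cultures were divided among groups, but the labels do not say whether a number marks one litter. The block moved the members at an unadjusted p under 0.05 from 83 to 96 (19.9%), 86 to 99 (20.5%) and 61 to 69 (14.3%), where all regions gave 10.1%, 11.3% and 6.50%. For PFF+MLi-2 vs PFF those of all regions went from 8865 to 8793. Low peaks of 13 to 15 fragments limit all of this: a missing ASO peak can be a modest loss.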
